A study of Mus musculus with 6 samples.

Results

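The nuclear receptor superfamily was followed in mouse liver that was regenerating after loss of portal flow to a neighbouring lobe. The 39 receptors were taken as a list of gene symbols and matched to array probes by RefSeq accession. All 39 had at least 1 probe, 58 probes in all, and 36 of the 39 passed the signal filter and were among the 13586 genes tested. PVBL livers came from male C57BL/6J mice 3 days after ligation of the portal branch that feeds the left side, and the right lobe, which kept its portal supply, was taken as regenerating liver. The other group was sham-operated male C57BL/6J mice sampled at the same time. There were 3 samples a group, hybridised singly to single-colour arrays. Whether each sample is a separate mouse is not in the labels, and the p-values therefore rest on the variation among 3 samples a group, part of which may be technical.

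Nuclear receptors are transcription factors that bind small fat-soluble ligands, such as steroid and thyroid hormones, retinoids, bile acids, oxysterols and fatty acids, and many of them bind DNA as pairs with an RXR partner. In hepatocytes they set the programmes of bile acid, lipid, glucose and drug metabolism, and orphan members of the family hold hepatocyte identity or take part in the circadian clock. Many recognise the hexamer AGGTCA, alone or as a repeat.

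The signal at the 75th percentile was 331 to 407 units on the PVBL arrays and 203 to 315 units on the sham arrays, and between 48.1% and 53.6% of probes were well above background on an array. Levels are given as log2 of the signal relative to that percentile of the same array, so a level is comparable between arrays for 1 probe but not between genes. All 6 arrays lay on 1 slide, with PVBL in row 2 and sham in row 1, and the effects of row and of surgery cannot be told apart. In whole tissue, fewer cells of a type and less RNA per cell cannot be told apart either. Of all genes tested, 15.1% were higher and 17.8% lower in PVBL (adjusted p under 0.05 in limma). Of the 9 hepatocyte markers tested, none was higher and 2 were lower in PVBL (median log2 difference -0.28). Their summed level was 5980 to 7494 times the 75th percentile in PVBL and 8226 to 9292 times in sham. When arrays were instead scaled on their spike-in probes, the hepatocyte median was 0.16 and neither call remained, and without sham 1 or sham 2 the count was 0 as well. All 8 proliferation markers tested rose, with a median log2 difference of 5.79, among them Top2a (at least 33.1-fold), Birc5 and Ccna2. With normexp background correction all 8 still rose but the median was 3.96 and Top2a was 6.47-fold higher.

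Receptor transcripts were lower in PVBL than in sham liver more often than other genes, by modest amounts. Of the 36 receptors tested, 11 fell (adjusted p under 0.05 in limma), 0 rose and 25 did not pass the threshold. The 11 are 30.6% of the receptors, against 17.8% of all genes tested that were lower and 32.9% called in either direction. The 0 that rose stand against 15.1% of all genes tested. At an unadjusted p under 0.05 in limma 18 receptors were lower and 1, Nr1i2, was higher. All genes were not counted at that looser threshold, so these counts cannot be set against the shares above. Falls were found for Nr2f2, Esrrg, Ppara, Rxra, Nr3c1, Rara, Nr1d2, Thrb, Nr5a2, Esrra and Rxrb, and they ranged from 1.44-fold to 2.14-fold. The median log2 difference of the 36 receptors was -0.47, against -0.10 for all genes tested. The difference was below 0 for 33 receptors (91.7%), against 57.6% of all genes. In 19 receptors (52.8%) every PVBL array lay below every sham array, against 29.1% of all genes, and in 1 receptor every PVBL array lay above, where 22.3% of all genes did.

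The falls are relative to the other genes on the array. When arrays were scaled on their spike-in probes, the median of all genes moved up by 0.44 on the log2 scale. On the PVBL arrays the spike-in median stood 2.86, 3.50 and 3.28 log2 units above the 75th percentile (PVBL 1 to 3). On the sham arrays it stood 3.45, 3.40 and 4.11 above it (sham 1 to 3). PVBL 1 and sham 3 lay furthest from the other arrays of their group, and this scaling passes that unevenness on to every gene. None of the 36 receptors was then called in either direction by limma, against 17.0% of all genes called in either direction and 1.82% called lower. At an unadjusted p under 0.05 in limma 0 receptors were lower and 2 higher, without a count of all genes at that threshold. The receptor median was -0.03 and 16 receptors were above 0. The 11 receptors named above were below 0 there too, between -0.66 and -0.09. Either scaling takes 1 value from each array, so a change of scaling moves all genes alike. By construction, the distance between the receptor median and that of all genes was therefore -0.37 with either scaling. For the same reason 31 of 36 receptors were below the all-gene median in both. Single sham arrays also mattered for the count of falls. Of the 36 receptors, 3 were called lower without sham 1, 5 without sham 2 and 7 without PVBL 2. The share of all genes called lower was 7.93%, 10.4% and 16.4% in the same fits. The share of receptors was closer to that of all genes in these fits than with all 6 arrays (30.6% against 17.8%). Of the 36 receptors, 9 were called lower without PVBL 1, 11 without PVBL 3 and 8 without sham 3. The share of all genes there was 11.8%, 18.9% and 11.2%, so the receptors stayed well above it in those fits. The calls of Nr2f2 and Esrrg were the 2 that held without any 1 array.

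**Figure D1:**
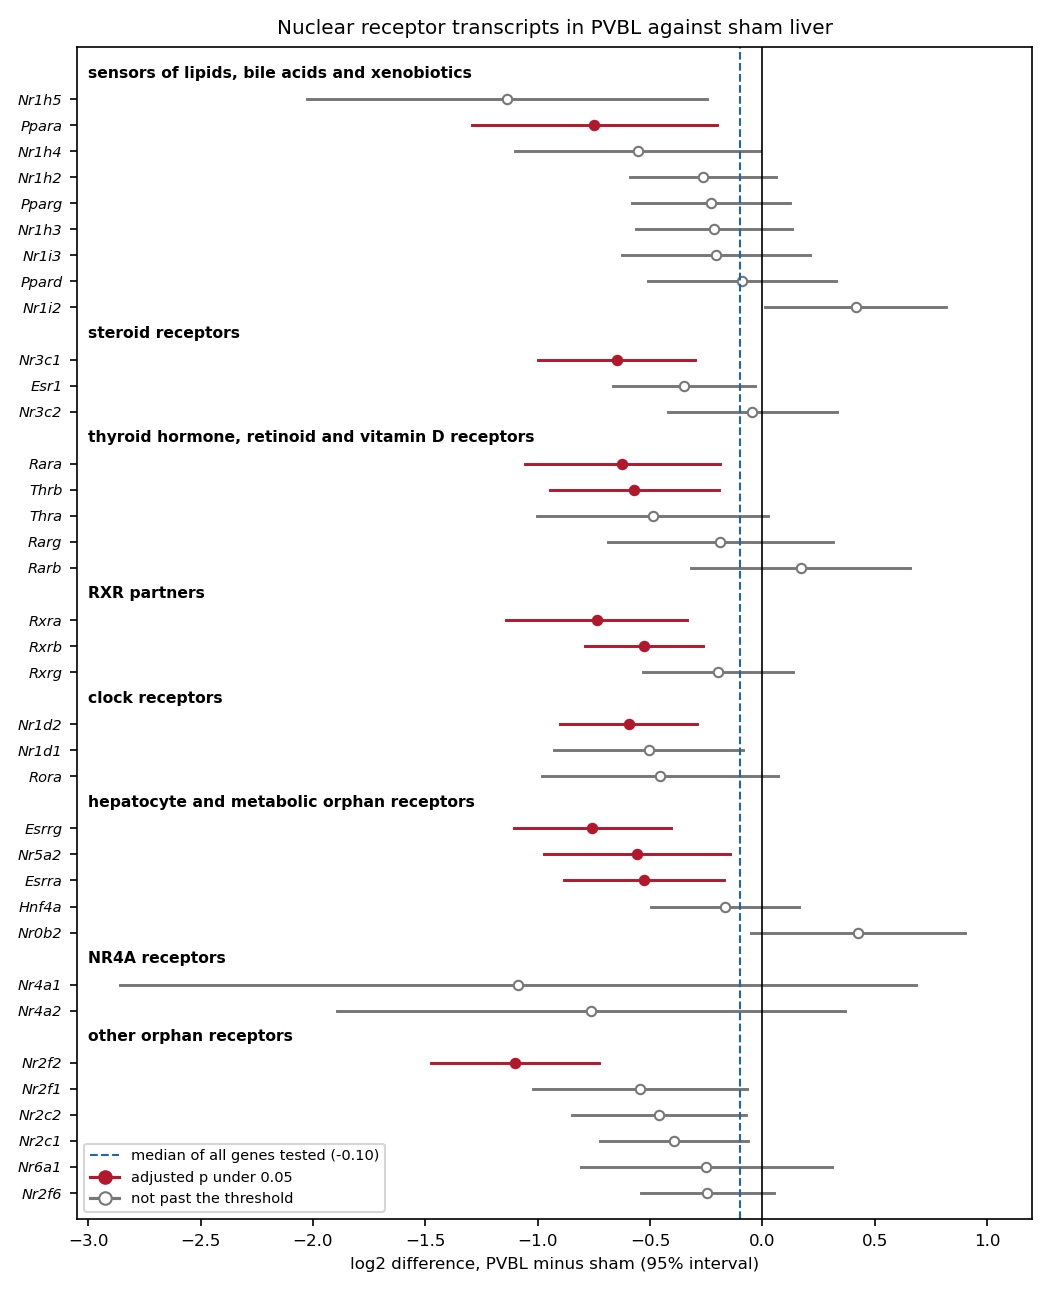
Log2 difference of each tested receptor (x axis, PVBL minus sham; bars are 95% intervals from limma), grouped by role. Filled red points passed the adjusted p threshold, and the dashed line is the median of all genes tested (-0.10). The 11 filled points all lie left of that line, and 3 receptors lie right of 0.

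Among the sensors of lipids, bile acids and foreign compounds, 1 of 9 tested receptors fell. Ppara, the fatty acid receptor that drives fasting fat oxidation, had log2 levels of 5.40, 4.78 and 4.54 in PVBL 1 to 3 and 5.81, 5.69 and 5.47 in sham 1 to 3. All PVBL arrays lay below all sham arrays, but PVBL 1 came within a small distance of sham 3. The transcript was 1.68-fold lower (log2 difference -0.75 ± 0.23, SE, n = 3 per group; adjusted p = 0.0447). The call was lost under 11 of 17 alternatives, among them quantile scaling (-0.61) and removal of any 1 of 5 arrays (adjusted p up to 0.135), while the other 2 Ppara probes were called lower on their own, at -0.98 and -0.74. The other PPAR genes did not pass the threshold: Ppard stood at -0.09 (95% interval -0.51 to 0.33) and Pparg, the adipogenic receptor, at -0.23 (-0.58 to 0.12). Ppard was above 0 when arrays were scaled on their median or on spike-in probes, and Pparg with the spike-in probes.

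Nr1h4, which encodes the bile acid receptor FXR, had levels of 5.28, 5.27 and 4.48 in PVBL and 5.52, 5.70 and 5.47 in sham. The groups did not overlap, PVBL 3 was the lowest array, and the difference missed the threshold (-0.56 ± 0.23, adjusted p = 0.104). Nr1h5, the related lanosterol-responsive receptor of mice, had levels of -1.81, -2.83 and -1.60 in PVBL and -1.50, -0.83 and -0.49 in sham. Its difference was the most negative of the 36 (-1.14 ± 0.38) with a wide spread between arrays, and it missed the threshold (adjusted p = 0.0558) but passed under 6 of 16 alternatives. The oxysterol receptor genes Nr1h2 (LXR-beta) and Nr1h3 (LXR-alpha) stood at -0.26 (95% interval -0.59 to 0.06) and -0.21 (-0.56 to 0.13), and both were above 0 with spike-in scaling.

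Neither drug-sensing receptor passed the threshold. Nr1i2, which encodes PXR, had levels of 3.33, 3.31 and 3.52 in PVBL and 2.79, 2.82 and 3.31 in sham. The highest sham array, sham 3, came just below the lowest PVBL array, and the difference of 0.42 ± 0.17 missed the threshold (adjusted p = 0.102). It passed with normexp background correction, with median scaling, with array weights and without sham 3. Nr1i3, which encodes CAR, had levels of 3.94, 3.96 and 3.38 in PVBL and 3.93, 4.02 and 3.95 in sham. In this probe, the brightest, PVBL 1 and PVBL 2 were within the sham range and PVBL 3 alone was lower. Its difference was -0.21 (95% interval -0.62 to 0.21, above 0 with spike-in scaling). In the other tested probe all PVBL arrays (2.65, 2.61 and 2.13) lay below all sham arrays (2.71, 2.77 and 2.72). That probe stood at -0.27 and was not called. The difference between the changes of Nr1i2 and Nr1i3 was not tested.

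RXR proteins are the shared partners of the receptors above. Rxra, the main RXR gene of hepatocytes, had levels of 0.13, -0.39 and -0.40 in PVBL and 0.55, 0.57 and 0.44 in sham. No PVBL array reached the sham range, and the transcript was 1.67-fold lower (-0.74 ± 0.17, adjusted p = 0.0177). The call was lost without sham 1 or sham 2, and the other Rxra probe stood at -0.35 and was not called. Rxrb, the widely expressed RXR gene, had levels of 4.12, 4.08 and 4.12 in PVBL and 4.60, 4.57 and 4.73 in sham. The arrays of a group lay close together, and the transcript was 1.44-fold lower (-0.53 ± 0.11, adjusted p = 0.013; adjusted p = 0.0516 without sham 1). Rxrg stood at -0.20 (95% interval -0.53 to 0.14) and was above 0 with spike-in scaling.

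Of the 5 tested receptors for thyroid hormone and retinoids, 2 fell. Thrb, the thyroid hormone receptor that predominates in hepatocytes, had levels of 0.98, 0.72 and 0.59 in PVBL and 1.55, 1.27 and 1.17 in sham, a 1.48-fold lower level in PVBL (-0.57 ± 0.16, adjusted p = 0.0328). Both tested Thrb probes were called lower, and the call was lost without PVBL 2, PVBL 3, sham 1 or sham 2 (-0.60 to -0.46). Thra, the more widespread thyroid receptor gene, had a similar difference with overlapping groups (-0.49 ± 0.22, adjusted p = 0.125). Rara, a retinoic acid receptor gene, had levels of 3.05, 2.82 and 2.86 in PVBL and 3.84, 3.57 and 3.19 in sham. It was 1.54-fold lower (-0.62 ± 0.18, adjusted p = 0.0391), but its other probe, for the same accession, stood at 0.03 and the call was lost without any 1 array except sham 3, and with the mean over both probes (-0.30). Rarb, itself a retinoid-induced gene, was the receptor of this group with a difference above 0 (0.17, 95% interval -0.32 to 0.66; below 0 with array weights and without PVBL 3), and Rarg stood at -0.19 (-0.69 to 0.32; above 0 with spike-in scaling). Vdr, the vitamin D receptor gene, did not rise well above background on any of the 6 arrays and was not tested.

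**Figure D2:**
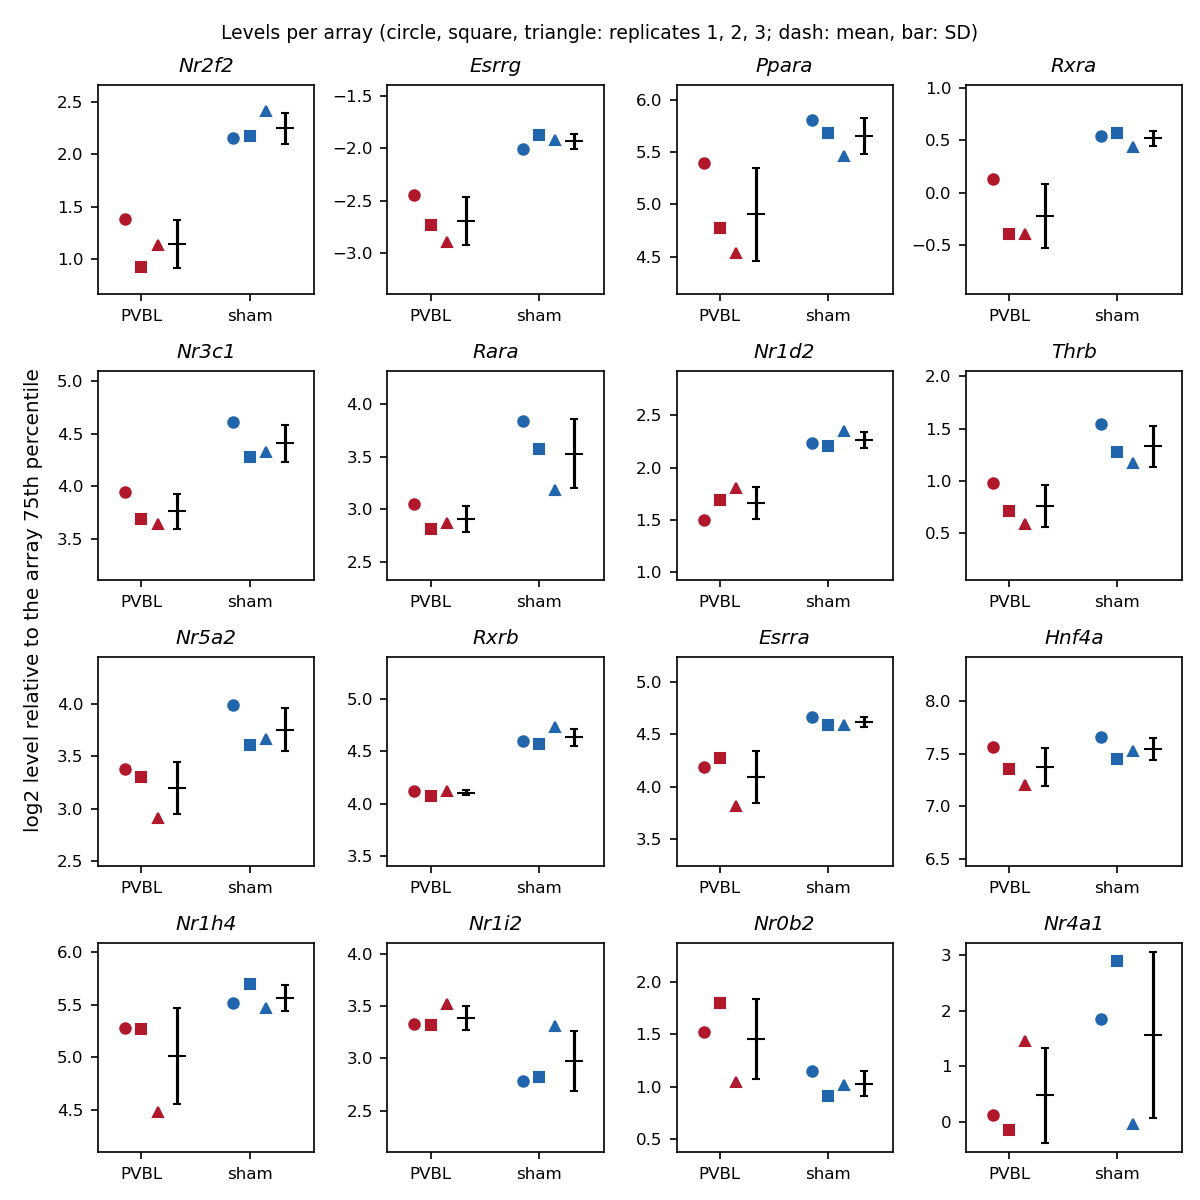
Log2 level relative to the array's 75th percentile (y axis) of 16 receptors on each array, PVBL in red and sham in blue, with the mean and SD at the side. The first 11 panels are the receptors that fell, and in each of them all 3 PVBL points lie below all 3 sham points. In Nr4a1 the groups overlap and the points of each group are spread over more than 1 log2 unit.

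Among the steroid receptors, Nr3c1, which encodes the glucocorticoid receptor, fell. Its levels were 3.95, 3.69 and 3.64 in PVBL and 4.61, 4.28 and 4.33 in sham. The groups did not overlap, and the transcript was 1.57-fold lower (-0.65 ± 0.15, adjusted p = 0.0167; adjusted p = 0.0665 without sham 1). Its other probe was called lower as well (-0.53). Esr1, the oestrogen receptor gene, was below sham on every PVBL array in its brightest probe but missed the threshold (-0.35 ± 0.13, adjusted p = 0.0847), its other tested probe stood at 0.15, and the brightest probe was at 0.09 with spike-in scaling. Nr3c2, which encodes the mineralocorticoid receptor, stood at -0.04 (95% interval -0.42 to 0.33), with a sign that changed under 6 of 16 alternatives.

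The clock receptors lay in the same range. Nr1d2, which encodes the haem-binding repressor REV-ERB-beta, had levels of 1.50, 1.69 and 1.81 in PVBL and 2.23, 2.20 and 2.35 in sham. It was 1.51-fold lower (-0.60 ± 0.13, adjusted p = 0.0138; adjusted p = 0.052 without sham 1). Its paralogue Nr1d1, REV-ERB-alpha, had levels of 1.59, 1.23 and 1.00 in PVBL and 1.73, 1.95 and 1.65 in sham, without overlap, but missed the threshold (-0.51 ± 0.18, adjusted p = 0.0674). Rora, which activates genes that the REV-ERB proteins repress, stood at -0.45 (95% interval -0.98 to 0.07). The time of day at sampling is not given in the labels, and its part in these values was not tested.

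Of the 5 tested hepatocyte and metabolic orphan receptors, 3 fell. Esrrg, the oestrogen-related receptor gamma gene, had levels of -2.44, -2.74 and -2.90 in PVBL and -2.01, -1.87 and -1.92 in sham. It was 1.69-fold lower (-0.76 ± 0.15, adjusted p = 0.00965), and its other probe had a similar difference (-0.68) that was not called. Esrra, its relative with roles in mitochondrial gene expression, had levels of 4.18, 4.28 and 3.81 in PVBL and 4.67, 4.59 and 4.59 in sham (-0.53 ± 0.15, adjusted p = 0.0353), and the call was lost without PVBL 1 or any 1 sham array (-0.57 to -0.50). Nr5a2, which encodes LRH-1, a regulator of bile acid synthesis, had levels of 3.38, 3.30 and 2.91 in PVBL and 3.99, 3.61 and 3.66 in sham. Its difference of -0.56 ± 0.18 was just past the threshold (adjusted p = 0.0474), was lost without any 1 array (-0.65 to -0.41), and was 0.00 in its other probe.

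Hnf4a and Nr0b2 did not change past the threshold. Hnf4a, the central receptor of hepatocyte identity, had levels of 7.57, 7.36 and 7.20 in PVBL and 7.66, 7.45 and 7.52 in sham. The groups overlapped, with a difference of -0.17 (95% interval -0.49 to 0.16) that was above 0 with quantile and spike-in scaling. Nr0b2, which encodes SHP, a repressor without a DNA-binding domain that FXR induces, had levels of 1.52, 1.80 and 1.04 in PVBL and 1.15, 0.92 and 1.02 in sham. PVBL 1 and PVBL 2 were above all sham arrays and PVBL 3 was not, the difference was 0.42 ± 0.20 (adjusted p = 0.145), and it passed without PVBL 3 (0.63). Hnf4g did not come well above background on any of 6 arrays.

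The NR4A genes are immediate early genes whose transcripts appear within minutes to hours of a stimulus. Nr4a1 had levels of 0.13, -0.15 and 1.45 in PVBL and 1.85, 2.89 and -0.04 in sham. The groups overlapped, PVBL 3 and sham 3 each lay apart from the other arrays of their group, and the difference of -1.09 had a 95% interval from -2.86 to 0.68 (adjusted p = 0.296). In its brightest probe Nr4a2 had the same order of arrays within each group, with levels of -3.32, -3.82 and -2.34 in PVBL, where 2 of 3 arrays were above background, and -2.21, -1.73 and -3.25 in sham (adjusted p = 0.254). In its other tested probe the PVBL order differed (-4.38, -2.82 and -3.66), and that probe was not called (-0.55). Nr4a1 and the brightest Nr4a2 probe passed with array weights (-1.79 and -1.12), which give less weight to arrays that lie apart. Nr4a3 did not come well above background on any of 6 arrays.

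Of the other orphan receptors, Nr2f2 fell and the remaining 5 were below 0 without a call. Nr2f2 encodes COUP-TFII, a receptor of venous endothelium, stromal cells and hepatocytes. Its levels were 1.38, 0.92 and 1.14 in PVBL and 2.15, 2.17 and 2.41 in sham. The gap between the groups was wider than the range of either, and the transcript was 2.14-fold lower (-1.10 ± 0.16, adjusted p = 0.00303), with adjusted p up to 0.0138 when any 1 array was left out. Its paralogue Nr2f1 (COUP-TFI) was at -0.55 (adjusted p = 0.0769), and Nr2c1 and Nr2c2, the testicular receptor genes TR2 and TR4, were at -0.39 and -0.46 (adjusted p = 0.0675 and 0.0693). In the brightest probe of these 3 genes and in Nr2f6 (-0.24) every PVBL array lay below every sham array. The other tested probe of Nr2c2 showed this as well, while those of Nr2f1 and Nr2c1 overlapped between the groups. Nr6a1, the germ cell nuclear factor gene, was above background on 1 of 3 PVBL arrays and on all sham arrays (-0.25, 95% interval -0.81 to 0.31). Nr2c1, Nr2f6 and Nr6a1 were above 0 with spike-in scaling.

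Markers of non-parenchymal cells were read in the same comparison, in which 15.1% of all genes tested rose and 17.8% fell. Of 11 sinusoidal endothelial markers 4 fell and 0 rose (median -0.71), with a summed level of 57.1 to 90.2 times the 75th percentile in PVBL and 128 to 137 times in sham. Clec4g, a lectin of these cells, was 2.81-fold lower, and Oit3 and Fcgr2b were lower by 1.24 and 0.89 on the log2 scale, both calls being lost with spike-in scaling and without any 1 of 5 arrays, PVBL 3 excepted. The count of these markers that fell was 10 without PVBL 3 and 11 with array weights, against 2 without PVBL 2 and 1 without PVBL 1, without any 1 sham array or with spike-in scaling. Of 12 stellate cell markers 4 rose and 2 fell (median 0.25; summed level 128 to 162 in PVBL and 144 to 153 in sham; led by Col1a1, Acta2 and Col3a1), of 7 biliary markers 5 rose and 0 fell (median 1.44; 9.48 to 29.7 in PVBL and 2.88 to 5.68 in sham; led by Prom1, Spp1 and Krt19), and of 10 Kupffer cell and macrophage markers 1, Marco, rose (median -0.43; 125 to 312 in PVBL and 167 to 187 in sham). The Kupffer markers turned on PVBL 3: 8 of the 10 were called lower without it (median -0.84) and 7 with array weights (median -0.74). Clec4f, a Kupffer cell lectin, had levels of 3.83, 3.78 and 5.12 in PVBL and 4.84, 4.70 and 4.90 in sham. Of the stellate markers 2 rose without sham 1 or sham 2, and 1 fell without PVBL 1, sham 1 or sham 2. Of 9 lymphocyte markers 2 fell, Cd8a (at least 1.63-fold, but 1.44-fold with normexp) and Cd3g (summed level 40.1 to 75.1 in PVBL and 64.8 to 84.8 in sham). Leaving out sham 1 or sham 3 ended the call of Cd8a, and Cd3g lost its call under 10 of 16 alternatives, among them removal of any 1 array except PVBL 3, and of 5 neutrophil markers, Elane and Csf3r among them, none was called (79.5 to 103 in PVBL and 95.1 to 112 in sham). Of the genes on these lists, Mpo, a neutrophil gene, did not come well above background on any array. The part of these cell types in the receptor values was not tested.

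Agreement between probes differed by gene. Of the 17 receptors with more than 1 tested probe, 14 had all probes on the same side of 0. In Ppara, Nr3c1 and Thrb every tested probe was called lower, in Rxra, Rara, Nr5a2 and Esrrg only the brightest was called, and in the other 10 no probe was called. The probes of Esr1, Rara and Nr5a2 lay on different sides of 0, although each pair carries a single accession, and which transcript forms they detect was not analysed here.

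**Figure D3:**
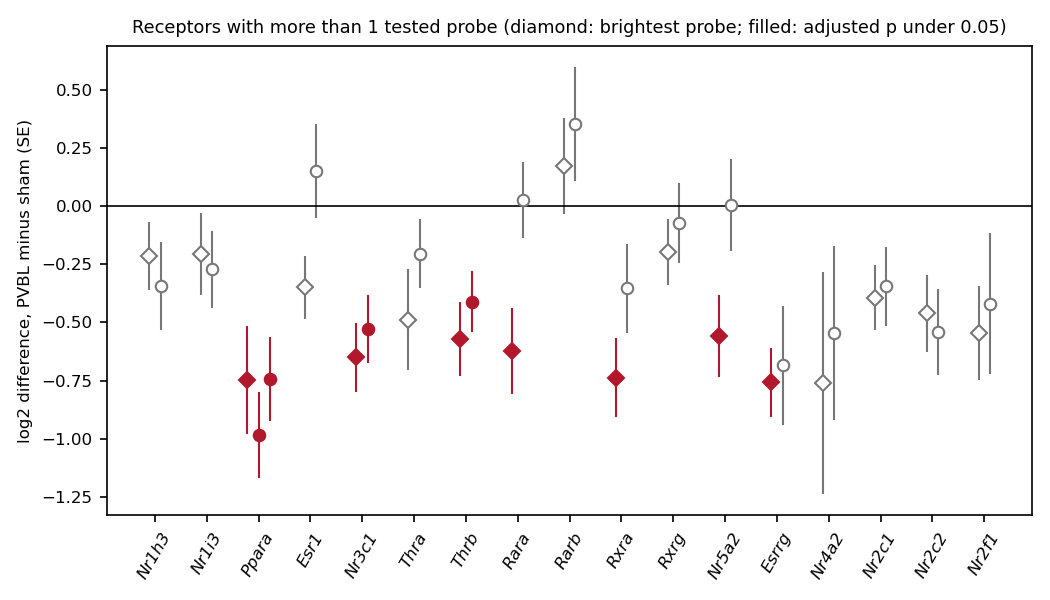
Log2 difference (y axis, PVBL minus sham; bars are SE) of each tested probe of the 17 receptors with more than 1, with the brightest probe as a diamond and probes called over all probes filled. Ppara, Nr3c1 and Thrb have every probe filled, and Rara and Nr5a2 have 1 probe near 0.

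The members that fell were looked up in RefSeq promoter windows (build GRCm38.p6), each from 250 bases before to 50 bases after a transcription start. Windows were found for 36 of the 39 receptors, 55 windows in all. The receptor hexamer AGGTCA, searched on both strands (TGACCT on the other), was in 20.0% of these 55 windows and in 16.3% of all 32851 windows, so receptor promoters held it about as often as others. The direct repeats AGGTCANAGGTCA and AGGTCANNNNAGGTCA, which contain the hexamer, were in none of the 55 and in 0.0396% and 0.0152% of all. The E-box CACGTG, which clock proteins bind, was in 9.09% of receptor windows and in 7.15% of all. Counted by gene, 10 of the 36 receptors with a window (27.8%) held the hexamer in at least 1 window, against 18.1% of all 27025 genes, and genes differ in their number of windows. The 10 include 5 of the 10 fallen receptors that had a window. Nr1h4, Nr6a1, Pparg, Rarg and Rxrg held it as well and were not called, so the hexamer was not particular to receptors that fell. Only the windows of fallen receptors that held the hexamer are shown. Each is written along its gene's strand with the hexamer in capitals.
Nr1d2: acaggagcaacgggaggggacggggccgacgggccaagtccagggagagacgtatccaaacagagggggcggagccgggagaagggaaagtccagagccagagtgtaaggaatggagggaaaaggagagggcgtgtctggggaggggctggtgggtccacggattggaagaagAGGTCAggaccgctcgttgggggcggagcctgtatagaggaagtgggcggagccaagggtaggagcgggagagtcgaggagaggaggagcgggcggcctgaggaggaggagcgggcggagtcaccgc
Nr5a2: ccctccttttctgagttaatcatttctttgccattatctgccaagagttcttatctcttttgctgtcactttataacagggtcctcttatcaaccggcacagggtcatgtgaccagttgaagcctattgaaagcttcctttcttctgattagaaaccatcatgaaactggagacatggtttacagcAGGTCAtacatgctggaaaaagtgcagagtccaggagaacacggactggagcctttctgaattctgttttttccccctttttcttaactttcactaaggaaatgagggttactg
Rara: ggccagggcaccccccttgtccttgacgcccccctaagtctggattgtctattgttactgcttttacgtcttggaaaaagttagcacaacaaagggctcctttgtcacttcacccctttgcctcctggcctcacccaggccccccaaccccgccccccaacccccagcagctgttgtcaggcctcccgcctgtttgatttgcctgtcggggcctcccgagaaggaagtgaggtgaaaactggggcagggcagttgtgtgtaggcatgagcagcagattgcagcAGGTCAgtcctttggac
Rxra: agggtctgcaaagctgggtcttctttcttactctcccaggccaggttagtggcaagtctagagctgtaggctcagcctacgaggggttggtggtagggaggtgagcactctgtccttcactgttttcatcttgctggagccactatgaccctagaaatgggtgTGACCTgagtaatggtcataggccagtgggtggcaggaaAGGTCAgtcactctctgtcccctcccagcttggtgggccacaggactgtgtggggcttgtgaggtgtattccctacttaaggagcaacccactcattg
Thrb: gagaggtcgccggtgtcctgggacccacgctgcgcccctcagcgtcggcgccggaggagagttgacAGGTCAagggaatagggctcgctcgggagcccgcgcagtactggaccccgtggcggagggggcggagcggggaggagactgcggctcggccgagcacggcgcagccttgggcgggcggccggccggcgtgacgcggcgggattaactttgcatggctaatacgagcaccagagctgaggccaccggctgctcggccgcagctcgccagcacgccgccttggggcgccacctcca

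The Nr1d2 window lies at chr14:18239057-18239356 on the minus strand, and its hexamer begins 77 bases before the start. The Nr5a2 window, 1 of 2 for that gene, lies at chr1:136960399-136960698 on the minus strand, with the hexamer 64 bases before the start. The Rara window, 1 of 4, lies at chr11:98964622-98964921 on the plus strand, with the hexamer 33 bases after the start. The Rxra window, 1 of 2, lies at chr2:27709042-27709341 on the plus strand and holds the hexamer in both orientations, 87 and 48 bases before the start. The Thrb window, 1 of 2, lies at chr14:17660710-17661009 on the plus strand, with the hexamer 184 bases before the start. A match of letters is not a measured binding site, and no binding data were analysed here.

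The 10 receptors of the superfamily outside the list were checked on the same arrays. Nr0b1, Nr2e1, Nr2e3, Pgr and Rorb did not come well above background on any of 6 arrays. Of the 5 tested, 4 fell, where 17.8% of all genes did. Among them were Nr5a1 (-1.06 ± 0.30), Esrrb (-0.99 ± 0.25) and Esr2, the oestrogen receptor beta gene. The calls of Nr5a1 and Esrrb were lost without PVBL 1, PVBL 2, sham 2 or sham 3, and 0 of the 5 were called with spike-in scaling. The count of 4 was 0 to 2 without any 1 array except PVBL 3.

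Genes around the receptors were called in both directions, as were all genes tested, of which 15.1% rose and 17.8% fell. These shares are the background for each list count below, and no list was tested as a set. Of 18 coregulators 3 rose and 3 fell, close to those shares, with a median of -0.06, close to that of all genes. The count that rose was 0 without PVBL 1 or sham 1, and 1 without PVBL 2 or sham 2. Ppargc1b, a coactivator of the oestrogen-related receptors, was 2.73-fold lower (-1.45 ± 0.26). Med1, the mediator subunit that many nuclear receptors contact, was 4.59-fold lower in its brightest probe, and the call was lost with the mean over its probes. Crebbp, a histone acetyltransferase gene, was 2.43-fold higher and lost its call without PVBL 1 or sham 1 (0.98 to 1.54 without any 1 array).

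Among targets of the lipid and bile acid sensors the calls differed by list. Of 19 PPAR-alpha targets 4 rose, 3 fell and 12 did not pass, with a median of -0.19 (0.25 with spike-in scaling). The count that rose was 2 without PVBL 1 and 1 without sham 1 or sham 2. Acaa1b, a peroxisomal thiolase, was 2.57-fold lower, a call lost with spike-in scaling. Pdk4, which restrains glucose oxidation, was 3.63-fold higher (0.71, 0.56 and 2.23 in PVBL, against -0.97, -0.66 and -0.44 in sham) and lost its call without sham 1 or sham 2. Of 10 LXR targets 5 fell and 0 rose (median -0.67, or -0.23 with spike-in scaling, where 1 fell), among them Mylip, which degrades the LDL receptor (2.66-fold), the lipogenic factor gene Srebf1 (2.43-fold) and the sterol transporter gene Abcg8 (2.20-fold). The calls of Srebf1 and Abcg8 were lost with spike-in scaling.

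Of 9 tested FXR and SHP targets 3 rose and 2 fell. Cyp8b1, the sterol 12-alpha-hydroxylase that SHP represses, had levels of 0.57, -0.04 and -0.34 in PVBL and 2.63, 2.37 and 3.22 in sham, a 6.40-fold lower level in PVBL (adjusted p = 0.00104). Slc51b, a subunit of the bile acid exporter that FXR induces, was 7.02-fold higher, and Abcb4, the phospholipid exporter, 2.08-fold higher. Cyp7a1, the rate-limiting enzyme of bile acid synthesis, did not pass the threshold (0.24). Of 12 tested CAR and PXR targets 4 rose and 0 fell (1 fell without PVBL 2 or PVBL 3), with a median of 0.15. Gsta1, a glutathione transferase, was 51.1-fold higher (8.01, 8.58 and 9.08 in PVBL, against 3.12, 3.29 and 2.22 in sham), Cyp2c55 was 6.95-fold and Gstm1 2.46-fold higher, while Cyp3a11 (-0.05) and Cyp2b10 (0.87, adjusted p = 0.129), the usual indicator genes of PXR and CAR, did not pass. Probes for these Gst and Cyp2c families may meet near-identical relatives.

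Of 12 glucocorticoid receptor targets 2 rose and 3 fell. Zbtb16 was 3.27-fold higher, and Pck1, of gluconeogenesis, and the factor gene Klf9 were 2.10-fold and 1.59-fold lower. The calls of Pck1 and Klf9 were each lost without sham 1 or sham 3, Pck1 also without sham 2 and Klf9 also without PVBL 2, and 0 of the 12 were lower without sham 1, without sham 3 or with spike-in scaling. The count that rose was 1 without any 1 array except PVBL 3. Of 6 thyroid hormone targets 3 fell and 1 rose (0 without sham 1, 2 without PVBL 2 or sham 3). Dio1, the deiodinase that activates thyroid hormone and is itself induced by it, had levels of 3.48, 3.64 and 2.87 in PVBL and 5.87, 5.53 and 6.23 in sham (5.85-fold lower, adjusted p = 0.000706; -2.11 with spike-in scaling). G6pc, glucose-6-phosphatase, was 3.91-fold lower, and Thrsp, a lipogenic gene, 2.23-fold lower, a call that was lost without any 1 array except sham 3 (-1.45 to -0.73 without any 1 array).

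Of 9 tested retinoid genes 3 fell and 1 rose. Lrat, which makes the stored retinyl esters of stellate cells, was 2.35-fold lower, and Rdh16, a retinol dehydrogenase, 2.08-fold lower, and the calls of both were lost without PVBL 1, sham 1 or sham 2, that of Rdh16 also without PVBL 3, and 0 of the 9 were lower without PVBL 1, without sham 1 or with spike-in scaling, and 1 was without PVBL 3 or sham 2. Of 13 tested clock genes 4 fell and 1 rose. The repressor gene Cry2 was 2.03-fold and the output factor gene Dbp 1.71-fold lower, the call of Dbp being lost without sham 1 or sham 2, and Bhlhe41, above background in sham only, was at least 2.12-fold lower (1.52-fold with normexp) and lost its call without any 1 sham array. Clock rose (0.60), a call lost without any 1 array except sham 3. Without sham 1 or sham 2, 1 clock gene was lower. With spike-in scaling 0 of the 13 clock genes were lower and 2 were higher. Of 11 tested carriers and activating enzymes of the receptors' ligands 6 fell and 0 rose (median -0.49, or -0.05 with spike-in scaling, where 4 fell and 1 rose). Serpina6, which carries corticosteroids in plasma, was 2.91-fold lower, Hsd11b1, which regenerates active glucocorticoid in liver, stood at -1.50, and the oxysterol hydroxylase gene Cyp7b1 was 3.39-fold lower with a wide spread (its call was lost without PVBL 1, PVBL 3, sham 1 or sham 3). Dio1 stands in this list as well as among the thyroid hormone targets.

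**Figure D4:**
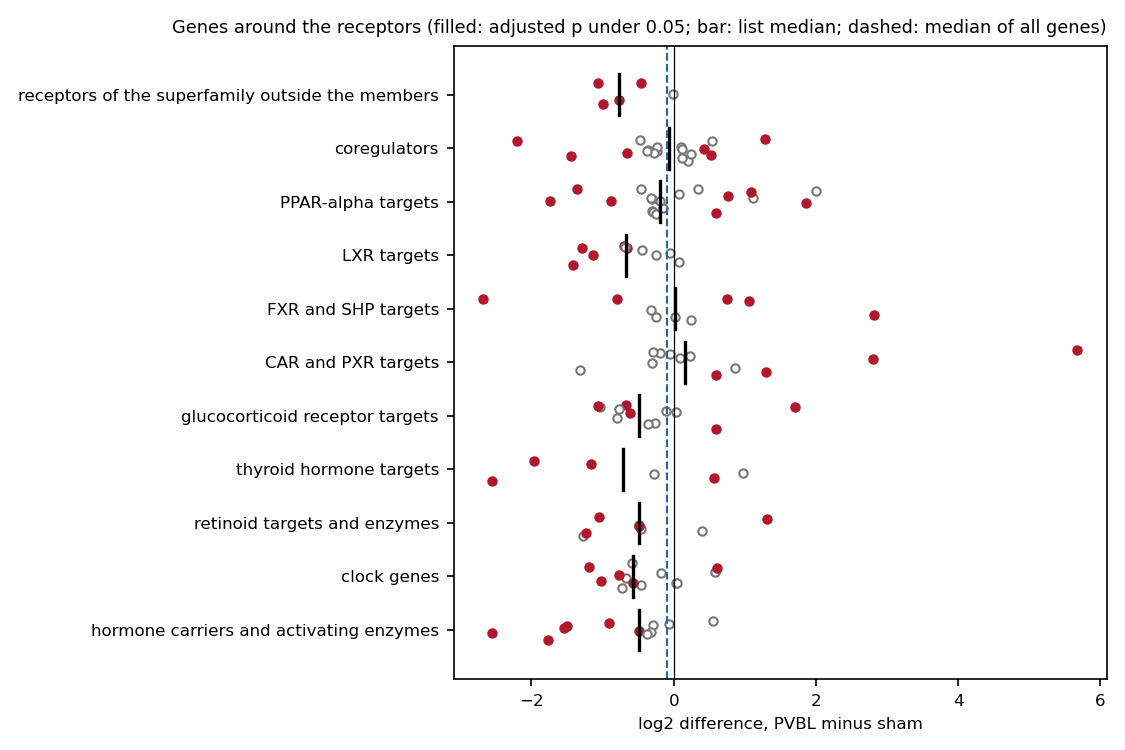
Log2 difference (x axis, PVBL minus sham) of every tested gene in 11 lists around the receptors, 1 point per gene, filled where the adjusted p passed the threshold, with the list median as a bar and the median of all genes dashed. Coregulators lie around the dashed line, LXR targets and hormone carriers have no filled point above 0, and CAR and PXR targets have none below 0.

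The position of the receptors below the bulk of the genes was seen under each processing tried. The receptor median was below the median of all genes in 17 of 17 alternatives. The count of receptors called lower, in contrast, ran from 0 with spike-in scaling to 18 of 36 with array weights. The share of all genes called lower was 1.82% and 33.1% in the same fits, so the count moved with that of all genes. Some of the 17 could not have differed here. Median and spike-in scaling move every gene by the same amount, and fitting the variance with an intensity trend leaves the differences unchanged. A replicate block, with each number once in each group, also left the receptor median at -0.47. Without the filter on dim probes the receptor median stayed at -0.47 too, and only the set of all genes changed. All 17 draw on the same 6 arrays, so their number does not measure how firm the result is. The deposited table of values holds 10 of the receptors, and its rows follow the group difference, so it is no separate check. The spread between arrays of a group was of the usual size, with a median SD of 0.25 over PVBL arrays and 0.15 over sham arrays for the receptors, and 0.21 and 0.15 for all genes. For the 25 receptors without a call the median half-width of the unadjusted 95% interval was 0.42.

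**Figure D5:**
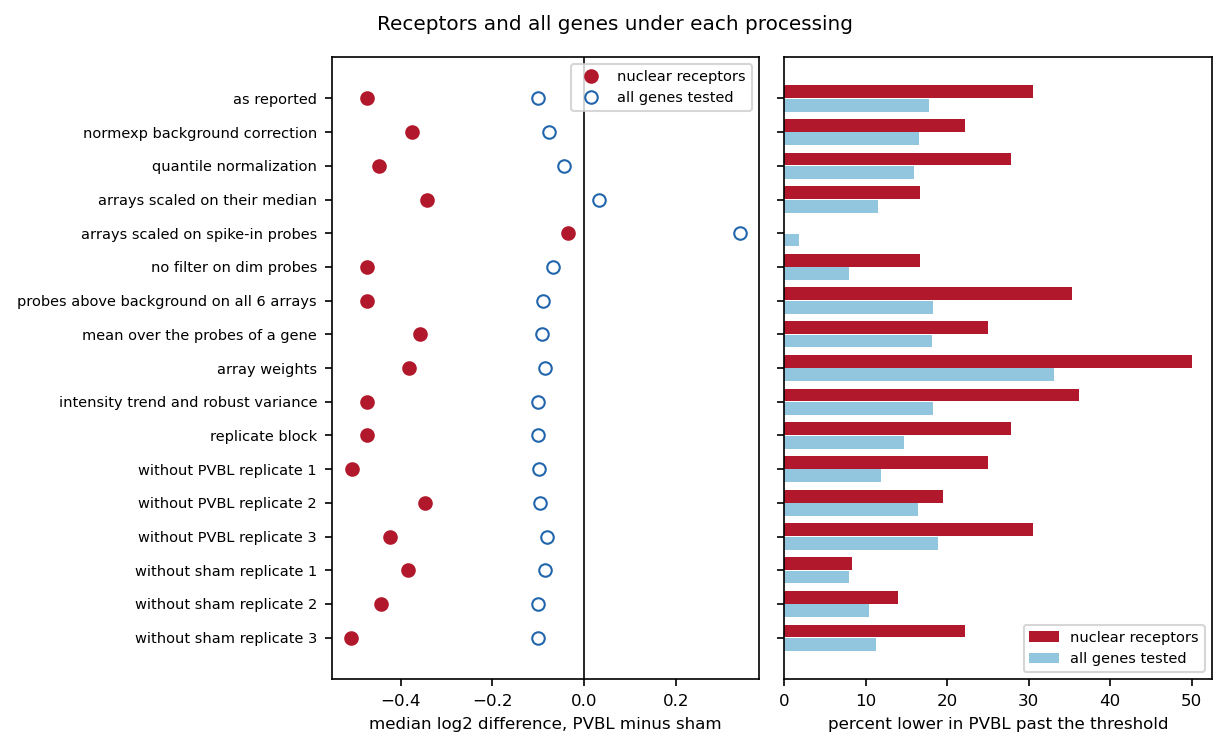
Left, the median log2 difference (PVBL minus sham) of the receptors and of all genes tested under each processing of the scanner files. Right, the percent of each called lower in PVBL. The receptor median lies left of the all-gene median in every row, while the bars shorten with spike-in scaling, where 0 receptors were called, and without sham 1.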

How the data were processed

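RNA of 6 right-lobe samples was column-purified and Cy3-labelled, per the labels' protocols. The deposited scanner files hold intensity values per spot, already background-corrected in the processed signal, written by Feature Extraction 10.7.3.1 for Agilent design 028005 (build mm9), per the file headers; the submitters' processing notes name version 9.1. A deposited table gives log2 values in 7850 rows, whose normalization is not given in the sources used here. They matched the scaled log2 signals centred per probe (r at least 0.9997), and the column medians were -0.18, -0.15 and -0.22 in PVBL, against 0.17, 0.15 and 0.18 in sham. It names 4524 genes, of which 4403 were called when tested, so its rows follow the group difference, and it served only as an alternative.

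Control spots and 115 to 201 flagged spots an array were dropped, repeat spots were averaged on the log2 scale, and each array's 75th percentile was subtracted. A probe was tested if every array of PVBL or of sham was well above background there, which held for 27918 of 55681. Genes were named by RefSeq accession through a table of assembly GRCm38.p6 (26413 probes), and the brightest probe stood for each of 13586 genes. PVBL was set against sham with limma 3.58.1 under R 4.3.3 (lmFit and eBayes, two-sided, Benjamini-Hochberg over all genes, threshold 0.05). The script was tested on simulated data. The receptors and the 19 gene lists were chosen with earlier results of these data known. All receptors are named, and of each list the 3 called genes with the largest difference, or the 2 brightest where none was called, apart from a few that are not reported here; Clock, Hsd11b1, Esr2, Cyp7a1, Cyp3a11, Cyp2b10 and Mpo, were named after their values were seen. Nothing in the labels ties same-numbered samples together, so the numbers were not taken as pairs. Deviations of same-numbered samples correlated at 0.17, -0.06 and 0.18, and those of differently numbered samples at -0.25 to 0.18. With 3 arrays a group these values cannot settle whether samples are paired. Same-numbered arrays shared a slide column, so a replicate block is a column block as well. The files held no mean spot signal, and normexp (offset 50) used the median signal. Having 3 arrays a group limits the precision.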

Additional observations from a re-analysis of the deposited data

How the results depend on the processing

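With spike-in scaling 2304 genes were called (247 lower) and 0 receptors lower; with array weights 7819 genes (3328 higher, 4491 lower), 18 receptors lower and 2 higher; with median scaling 1559 genes lower, 6 receptors lower and 1 higher; without a filter on dim probes, where more genes were tested, 1582 genes and 6 receptors lower; with normexp 1 receptor higher. The split of all genes was 2053 higher and 2422 lower as reported, 2639 and 1559 with median scaling and 2057 and 247 with spike-in scaling. Leaving out 1 array gave 2404 to 4777 genes called (1327 to 2206 higher, 1077 to 2571 lower), 3 to 11 receptors lower and 0 to 1 higher. With the replicate number as a block 3803 genes and 10 receptors were called, with Esrra lost (adjusted p = 0.0535). The sign turned for 13 receptors with spike-in scaling: Nr1h2 0.18, Nr1h3 0.23, Nr1i3 0.23, Ppard 0.35, Pparg 0.21, Esr1 0.0913, Nr3c2 0.40, Rarg 0.25, Rxrg 0.24, Hnf4a 0.27, Nr2c1 0.0469, Nr2f6 0.20 and Nr6a1 0.19. It also turned for Ppard (0.0400 with median scaling, -0.225 to 0.0848 without 1 array, above 0 without PVBL 2), Nr3c2 (0.0178 quantile, 0.0879 median, 0.0513 array weights, -0.130 to 0.0739 without 1 array, above 0 without PVBL 3 or sham 1), Rarb (-0.15 array weights, -0.0407 to 0.360 without 1 array, below 0 without PVBL 3) and Hnf4a (0.0747 quantile). Of the receptors called lower, Nr2f2 and Esrrg kept the call under 16 of 17 alternatives, Nr3c1, Rxrb and Nr1d2 under 15, Rxra under 14, Thrb under 10, Esrra under 8, Ppara under 6, Rara under 6 of 16 and Nr5a2 under 5 of 16. Apart from what the scaling or the number of genes or arrays sets by construction, the cause was not tested. Signal over background left 3 receptors untested and Nr4a2 and Nr6a1 above background on only some PVBL arrays.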
